A study of Rattus norvegicus with 24 samples.

Results

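The CXC chemokine ligands on the array were the genes whose name in the scanner files is Cxcl followed by a number, together with *Cx3cl1*. The rule found 11 of 7263 genes, measured by 12 of 8453 probes on all 24 arrays. They were *Cxcl1*, *Cxcl2*, *Cxcl4*, *Cxcl5*, *Cxcl7*, *Cxcl9*, *Cxcl10*, *Cxcl11*, *Cxcl12*, *Cxcl14* and *Cx3cl1*, and only *Cxcl12* had 2 probes. All 12 probes were matched by their accession to a RefSeq gene of the GRCr8 assembly, which carries another symbol for 3 of the genes. RefSeq names *Cxcl4* as *Pf4* (platelet factor 4), *Cxcl7* as *Ppbp* (pro-platelet basic protein) and *Cxcl5* as *Cxcl6*. The names of the array are used here. Of 7 other symbols under which CXC or XC ligands are known, 0 were found.

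Skin explants from the paws of 12 male BN rats (RT1n) aged 15 weeks were studied as a model of the graft-versus-host reaction. One explant of each rat was exposed over 3 days to BN lymphocytes taken from a 7-day mixed lymphocyte reaction against irradiated BN splenocytes (syngeneic), and the other with PVG (RT1c) lymphocytes stimulated in the same way by irradiated BN splenocytes (allogeneic). The responder lymphocytes came from the spleen, so the RNA of an explant can hold RNA of skin cells, of resident leukocytes and of added lymphocytes of either strain that stayed after the explants were washed before freezing. Both RNA samples of a rat were hybridized together to 2 two-color arrays with exchanged dyes, and the values of both arrays were averaged, so that n is 12 rats throughout. In such bulk samples, fewer cells of a type and less RNA per cell cannot be told apart.

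Chemokines are small secreted proteins that guide leukocytes through G protein-coupled receptors. The ligands *Cxcl9*, *Cxcl10* and *Cxcl11* are induced by interferon-gamma and attract activated T cells and NK cells through *Cxcr3*, whereas *Cxcl1*, *Cxcl2* and *Cxcl5* are induced by IL-1 and TNF through NF-kB and attract neutrophils through *Cxcr2*. *Cxcl4* and *Cxcl7* are best known from platelet granules, *Cxcl12* holds and guides *Cxcr4*-bearing cells, *Cxcl14* is made constitutively by epithelium, and *Cx3cl1* is a membrane-bound ligand of *Cx3cr1* that can be shed.

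The 24 arrays lay on 3 slides with 4 rats each. The 2 arrays of a rat correlated over all probes with r between 0.133 (rat 10) and 0.944 (rat 8). Array 1 of rat 10 stood apart by its brightness, with a median intensity of 6668 in Cy3 and 25640 in Cy5, against at most 216.4 and 414.9 on the other arrays. Rat 8 stood apart by its profile, with a median correlation of 0.17 with the other rats, against 0.369 to 0.692 for the others. Results are therefore given without array 1 of rat 10 or without rat 8 where these change them. As checks of the labelled tissue, *Col1a2* and *Pdgfra* of the fibroblast list were well above background on all 24 arrays, while none of the 9 listed keratinocyte genes was found by its symbol.

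At an adjusted p under 0.05, 4 of the 11 ligands differed between the groups, and these went in both directions. *Cxcl4* and *Cxcl2* were lower in the samples labelled as allogeneic, and *Cxcl7* and *Cxcl9* were higher. Over all genes tested, 16.3% passed the same threshold, 7.6% lower and 8.66% higher. By probe, 5 of 12 passed, against 17.3% of all probes. An unmoderated ANOVA of the rat means called *Cxcl2* and *Cxcl4* alone. With the rat as a random replicate block over the 24 arrays, 8 ligands passed, the added ones being *Cxcl1*, *Cxcl5*, *Cxcl12* and *Cxcl14* with adjusted p from 0.00635 to 0.029. That block fits 1 common correlation for all genes and takes arrays of the same RNA as partly separate values. Its added calls rest on no further rats, and the means were unchanged. At an unadjusted p under 0.05, 8 of the 11 ligands passed, against 29% of all genes. No ligand reached a mean log2-fold change of 1 in size, and the median over the 11 ligands was 0.13, against 0.01 over all genes. The signs follow the dye labels of the arrays and are opposite to those in the tables of the study. If the labels were turned, every log2 ratio and every lower or higher given here would change its direction. The levels of the groups would then be exchanged. The qRT-PCR that the study ran on 8 of these sample pairs was not analysed here. By that qRT-PCR the study reported the direction of its own array tables for nearly all of the genes it tested. Among these, *Aif1* was reported as higher in allogeneic explants, and also in a further, independent set of explants. On the arrays as labelled, *Aif1* had a log2-fold change of -1.27 and was lower in 12 of 12 rats. The direction is not settled by the arrays alone, and the reported qRT-PCR goes with the tables of the study rather than with the dye labels.

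**Figure D1:**
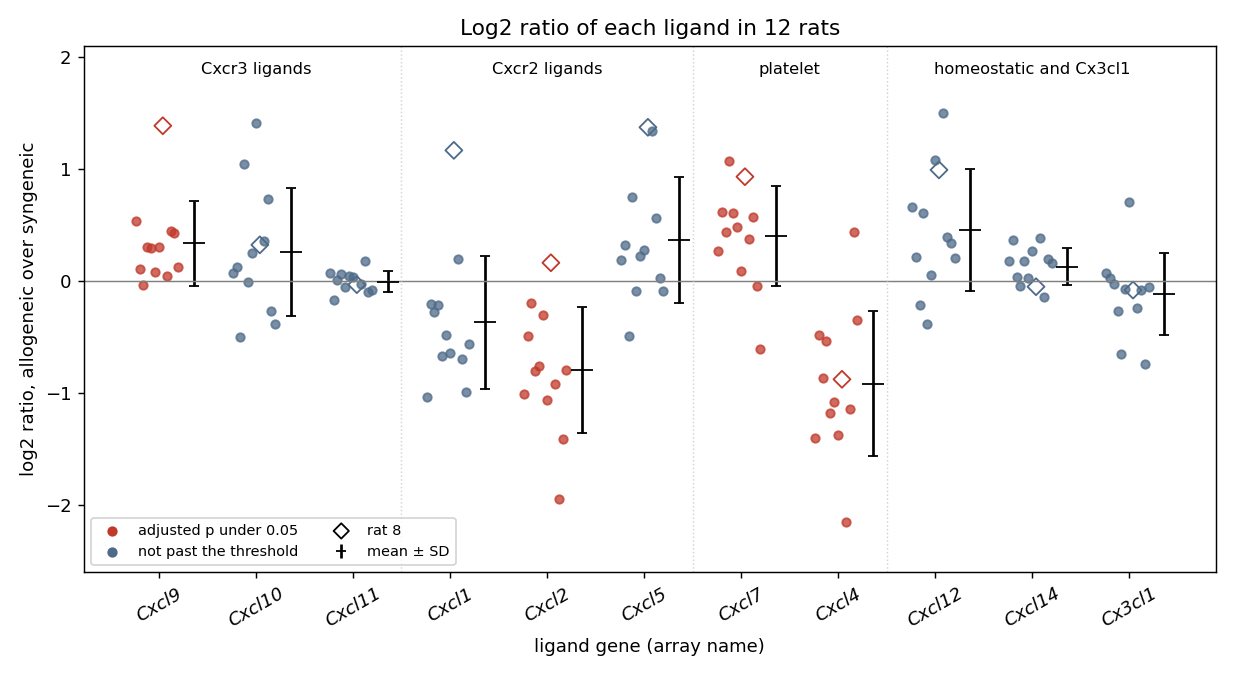
Log2 ratio of allogeneic over syngeneic explants (vertical axis) for the 11 ligand genes (horizontal axis), one point per rat in 12 rats, rat 8 as an open diamond, with mean ± SD beside the points and genes past an adjusted p of 0.05 in red. *Cxcl2* and *Cxcl4* lie below 0 in 11 of 12 rats, *Cxcl9* lies above 0 in 11 and *Cxcl7* in 10, and rat 8 is the highest point of *Cxcl9*, *Cxcl1* and *Cxcl5*.

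Of the ligands of *Cxcr3*, *Cxcl9* was the only one past the threshold. Its probe is the following sequence, which lies at chr14:17288831-17288890 (plus strand, rn3) per the file headers.
Cxcl9 probe: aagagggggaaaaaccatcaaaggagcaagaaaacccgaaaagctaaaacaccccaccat
The log2 ratio of *Cxcl9* ranged from -0.03 to 1.39 over the rats with a median of 0.30. It was above 0 in 11 of 12 rats, and the exception was rat 3. The normalized level, a log2 intensity, ranged from 9.73 to 12.82 (median 10.23) in allogeneic and from 9.17 to 12.37 (median 10.01) in syngeneic explants. The groups overlapped, and both highest values came from rat 10. The mean log2-fold change was 0.34 ± 0.38 (SD, n = 12), a 1.26-fold higher level, with an adjusted p of 0.0414 by limma.

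The value of *Cxcl9* in rat 8 was the highest by a wide margin, the next being 0.54 in rat 1. Without rat 8 the mean fell to 0.24 and the adjusted p to 0.00557, and without array 1 of rat 10 they were 0.36 and 0.0349. The mean was 0.22 where Cy5 carried the allogeneic sample and 0.45 where Cy3 did, and the former arrays gave an adjusted p of 0.108. The means within the slides were 0.23, 0.52 and 0.26, and with the slide as a block the adjusted p was 0.0543. It was 0.061 by the unmoderated ANOVA. Leaving out rat 1, 2, 4, 5, 7, 10, 11 or 12 also ended the call, with adjusted p from 0.051 to 0.0794 and means from 0.32 to 0.36.

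*Cxcl10* did not pass. Its log2 ratio ranged from -0.50 to 1.41 with a median of 0.19, and it was above 0 in 8 of 12 rats. Rats 7 and 4 were high at 1.41 and 1.05, while rats 3, 12, 11 and 5 were below 0. In level, *Cxcl10* ranged from 7.40 to 10.07 (median 8.50) in allogeneic and from 7.58 to 9.34 (median 8.33) in syngeneic explants, and the groups overlapped. Both highest levels came from rat 10, and without it the upper ends were 9.72 and 8.67. The mean was 0.26 ± 0.57 (SD, n = 12) with a 95% interval of -0.07 to 0.60 and an adjusted p of 0.291 by limma. Without rat 7 the mean was 0.16, and it was 0.37 where Cy5 carried the allogeneic sample and 0.15 where Cy3 did. The difference between *Cxcl9* and *Cxcl10* was not tested.

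The signal of *Cxcl11* exceeded background clearly on only 2 of 24 arrays in either group. Its log2 ratios, from -0.17 to 0.17, therefore give no direction and no fold. The 3 genes are neighbors on chromosome 14. Their probes lie in the order *Cxcl11*, *Cxcl10*, *Cxcl9*, with 15771 bases between the first pair and 20748 between the second. Over the 12 rats the log2 ratios of *Cxcl10* correlated with those of *Cxcl9* with r = 0.17, as a description over shared arrays.

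The 5 genes most like *Cxcl9* over the 12 rats, among 7252 genes outside the ligands, were *Rrm1* (a subunit of ribonucleotide reductase), *Tep1* (a telomerase-associated protein), *Orc3l* (origin recognition), *Cav* (caveolin) and *Tcfdp2* (a partner of E2F factors), with Pearson r from 0.938 to 0.959. Without rat 8 their r fell to between 0.736 and 0.861. *Tep1*, *Cav* and *Tcfdp2* also passed the test between the groups, with log2-fold changes of 0.26, 0.27 and 0.22 and adjusted p of 0.00183, 0.0165 and 0.00472. The genes most like *Cxcl10* were *Tyms* (thymidylate synthase), *Psme2* (a proteasome activator subunit inducible by interferon-gamma), *Hmox2*, *Zfp57* and *Isgf3g* (the interferon-stimulated factor *Irf9*), with r from 0.860 to 0.902. For *Cxcl10* the r without rat 8 was between 0.861 and 0.905. Of these 5 genes, only *Hmox2* passed the test between the groups, with a log2-fold change of -0.09 and an adjusted p of 0.0364. For both ligands these r values are the highest picked from 7252 over shared arrays, and they are only a description.

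Among the ligands of *Cxcr2*, *Cxcl2* was lower in the allogeneic explants. Its log2 ratio ranged from -1.95 to 0.16 with a median of -0.80. It was below 0 in 11 of 12 rats, lowest in rat 10 and above 0 in rat 8, and the 2 dye orientations had the same sign in every rat. The level ranged from 13.73 to 15.16 (median 14.44) in allogeneic and from 14.68 to 16.11 (median 15.13) in syngeneic explants. The groups overlapped, although 11 of 12 pairs fell. The mean was -0.79 ± 0.56 (SD, n = 12), a 1.74-fold lower level, with an adjusted p of 0.00368 by limma. The means within the slides were -0.63, -0.49 and -1.27. With the slide as a block the adjusted p was 0.00257, and by the unmoderated ANOVA *Cxcl2* also passed.

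*Cxcl1* lay below 0 in 10 of 12 rats, from -1.04 to 1.17 with a median of -0.52. The exceptions were rat 8 at 1.17 and rat 9 at 0.20, and its 2 dye orientations correlated with r = 0.97. In level, *Cxcl1* ranged from 13.51 to 14.81 (median 14.38) in allogeneic and from 13.44 to 15.19 (median 14.65) in syngeneic explants, and the groups overlapped. The mean was -0.37 ± 0.60 (SD, n = 12) with an adjusted p of 0.150. Without rat 8 the mean was -0.51 and the adjusted p 0.00325. With all rats and median centring in place of loess they were -0.48 and 0.0205, so that its side of the threshold changed with 1 rat and with the scaling.

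*Cxcl5* ran the other way. Its log2 ratio ranged from -0.49 to 1.37 with a median of 0.25, and 9 of 12 rats were above 0, highest in rats 8 and 9. Levels of *Cxcl5* ran from 10.03 to 11.95 (median 11.19) in allogeneic and from 9.77 to 12.04 (median 10.74) in syngeneic explants, and the groups overlapped. The mean was 0.37 ± 0.56 (SD, n = 12) with a 95% interval of 0.03 to 0.70 and an adjusted p of 0.131.

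The log2 ratio of *Cxcl1* correlated over the 12 rats with that of *Cxcl5* (r = 0.71, or 0.52 without rat 8) and with that of *Cxcl2* (r = 0.66, or 0.45 without rat 8). *Cxcl2* and *Cxcl5* showed no such relation, with r = 0.08. *Cxcl1* and *Cxcl9* had r = 0.50 with rat 8 and r = -0.77 without it, so that even the sign of this value rests on 1 animal. The highest correlation among the ligands was that of *Cxcl12* and *Cxcl5*, with r = 0.80 and 0.79 without rat 8.

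The 2 ligands known from platelets moved in opposite directions. Their probes are shown because they read neighboring and related genes, *Cxcl4* at chr14:18812555-18812614 and *Cxcl7* at chr14:18816439-18816498 (minus strand, rn3), with 3824 bases between them.
Cxcl4 probe: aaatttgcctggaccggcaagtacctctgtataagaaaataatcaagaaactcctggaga
Cxcl7 probe: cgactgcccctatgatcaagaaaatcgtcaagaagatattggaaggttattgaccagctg
The best ungapped alignment of the probes had 27 identical bases in an overlap of 45, and the longest run they shared was 9 bases.

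*Cxcl4* had the lowest mean of all ligands. Its log2 ratio ranged from -2.16 to 0.44 with a median of -0.98, and it was below 0 in 11 of 12 rats. Rat 9 was the lowest and rat 11 the exception. The level ranged from 11.92 to 14.35 (median 13.85) in allogeneic and from 13.06 to 15.15 (median 14.76) in syngeneic explants. The groups overlapped, and without rat 10, the dimmest in both groups, they ran from 12.67 to 14.35 and from 13.68 to 15.15. The mean was -0.92 ± 0.65 (SD, n = 12), a 1.89-fold lower level, with an adjusted p of 0.00373 by limma. It was -0.62 with the allogeneic sample in Cy5 and -1.21 with it in Cy3, and the Cy5 value was the higher in all 12 rats. The means within the slides were -0.82, -1.13 and -0.80.

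The log2 ratio of *Cxcl7* ranged from -0.61 to 1.07 with a median of 0.46. It was above 0 in 10 of 12 rats, highest in rats 4 and 8 and below 0 in rats 11 and 12. Levels of *Cxcl7* ran from 8.09 to 10.43 (median 8.94) in allogeneic and from 8.08 to 9.86 (median 8.44) in syngeneic explants, and the groups overlapped. Both highest levels came from rat 10, and without it the upper ends were 9.295 and 8.915. The mean was 0.40 ± 0.45 (SD, n = 12), a 1.32-fold higher level, with an adjusted p of 0.0402 by limma. The mean was 0.47 (adjusted p = 0.0231) where Cy5 carried the allogeneic sample and 0.34 (adjusted p = 0.0605) where Cy3 did, both by limma. The means within the slides were 0.60, 0.53 and 0.07. The adjusted p was 0.06 by the unmoderated ANOVA and 0.0881 by the exact signed-rank test, and 0.09 without rats 8 and 10. Leaving out rat 1, 2, 3, 4, 5, 6, 9 or 10 ended the call as well, with adjusted p from 0.0589 to 0.0793 and means from 0.34 to 0.41. The log2 ratio of *Cxcl7* exceeded that of *Cxcl4* in 10 of 12 rats, by 1.32 ± 0.86 on average (SD), as a description of a pair chosen after its values were seen.

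**Figure D2:**
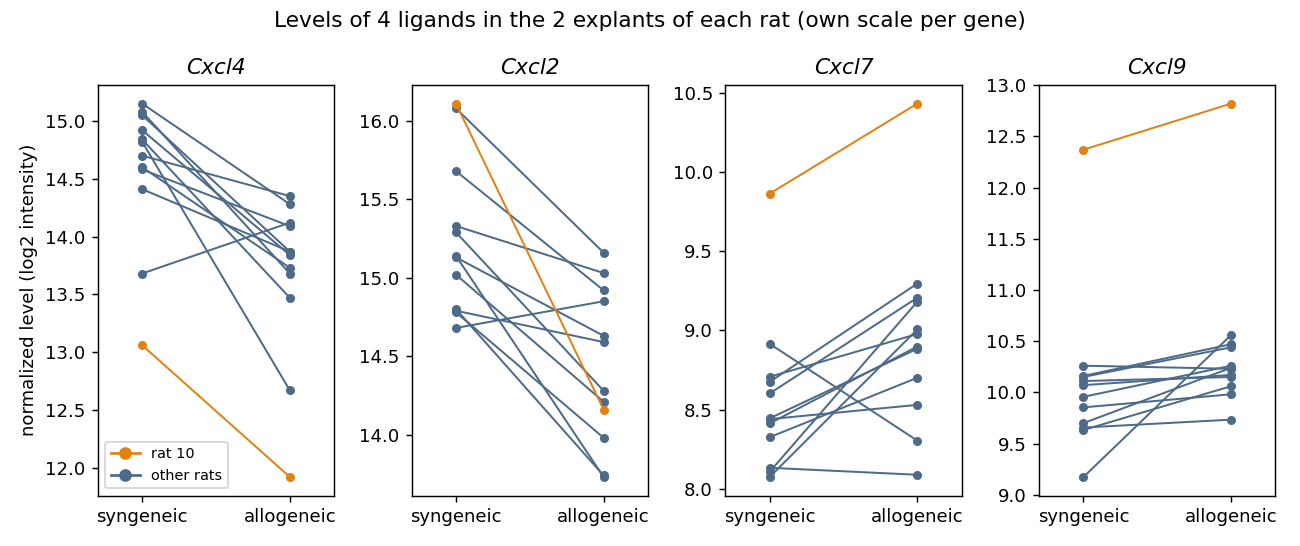
Normalized level in log2 intensity (vertical axis, own scale for each gene) of *Cxcl4*, *Cxcl2*, *Cxcl7* and *Cxcl9* in the syngeneic and allogeneic explant of each rat, joined by a line, with rat 10 in orange and the other rats in blue. The lines of *Cxcl4* and *Cxcl2* fall in 11 of 12 rats, those of *Cxcl7* rise in 10 and those of *Cxcl9* in 11, while the levels of the groups overlap.

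Other platelet genes, chosen after their values were seen, did not move alike. *Gp1bb*, a subunit of the platelet receptor for von Willebrand factor, had a log2-fold change of 0.39 ± 0.42 (SD) with an adjusted p of 0.0344. *Gp5* of the same receptor complex had -0.09 ± 0.11 with an adjusted p of 0.0894, and the integrin *Itgb3* had 0.06 ± 0.08 with an adjusted p of 0.101.

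*Cxcl12*, the ligand of *Cxcr4*, was at the edge of the threshold. Its log2 ratio ranged from -0.38 to 1.50 with a median of 0.36, and 10 of 12 rats were above 0, highest in rats 9, 7 and 8. Levels of *Cxcl12* ran from 8.29 to 9.96 (median 9.19) in allogeneic and from 7.90 to 9.43 (median 8.85) in syngeneic explants, and the groups overlapped. Both lowest levels came from rat 10, and without it the lower ends were 9.03 and 8.21. The mean over both probes was 0.45 ± 0.55 (SD, n = 12), a 1.37-fold higher level, with an adjusted p of 0.0557. Without array 1 of rat 10 it was 0.47 with an adjusted p of 0.047, and without rat 3 or rat 5 the adjusted p was 0.0369 or 0.0294. It was 0.109 without rat 7, 0.0973 without rat 9 and 0.0825 with the slide as a block. The mean was 0.61 (adjusted p = 0.00736) where Cy5 carried the allogeneic sample and 0.30 (adjusted p = 0.175) where Cy3 did, with Cy5 above Cy3 in 11 of 12 rats. The probes, 5919 bases apart on chromosome 4, belong to different transcript accessions, and their log2 ratios correlated over the rats with r = 0.92. One gave 0.50 with an adjusted p of 0.0491 over all probes and the other 0.40 with an adjusted p of 0.0700.

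The differences of *Cxcl14* were small and did not pass. Its log2 ratio ranged from -0.14 to 0.38 with a median of 0.17, and it was above 0 in 9 of 12 rats. Levels of *Cxcl14* ran from 10.94 to 13.72 (median 13.37) in allogeneic and from 11.08 to 13.73 (median 13.27) in syngeneic explants, and the groups overlapped. Both lowest levels came from rat 10, and without it the lower ends were 13.27 and 12.97. The mean was 0.13 ± 0.17 (SD, n = 12) with an adjusted p of 0.0786. Without rat 8 the adjusted p was 0.0383, without rat 10 it was 0.0341, and without array 1 of rat 10 it was 0.0199. Leaving out any other rat gave adjusted p from 0.066 to 0.153. With median centring in place of loess the mean was 0.05 and the adjusted p 0.736.

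*Cx3cl1* ranged from -0.74 to 0.71 with a median of -0.07. It was below 0 in 9 of 12 rats, and rat 7 was far above the others. The level ranged from 8.98 to 11.56 (median 9.28) in allogeneic and from 8.87 to 11.64 (median 9.30) in syngeneic explants, and the groups overlapped. Both highest levels came from rat 10, and without it the upper ends were 10.22 and 10.46. The mean was -0.12 ± 0.37 (SD, n = 12) with a 95% interval of -0.33 to 0.10 and an adjusted p of 0.479. The mean was -0.19 without rat 7, -0.06 without rat 11 and -0.07 without rat 5, and none of these passed.

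The 10 ligands other than *Cxcl11* were well above background in both groups on all 24 arrays, and none was saturated. The levels of all 11 ligands overlapped between the groups, as did those of all but 0.124% of the genes tested. No rat had all ligands on 1 side of 0, and between 3 and 8 of the 11 were higher in the allogeneic explant of a rat. The 2 dye orientations of a ligand correlated over the rats with r from 0.589 (*Cxcl14*) to 0.975 (*Cxcl1*).

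**Figure D3:**
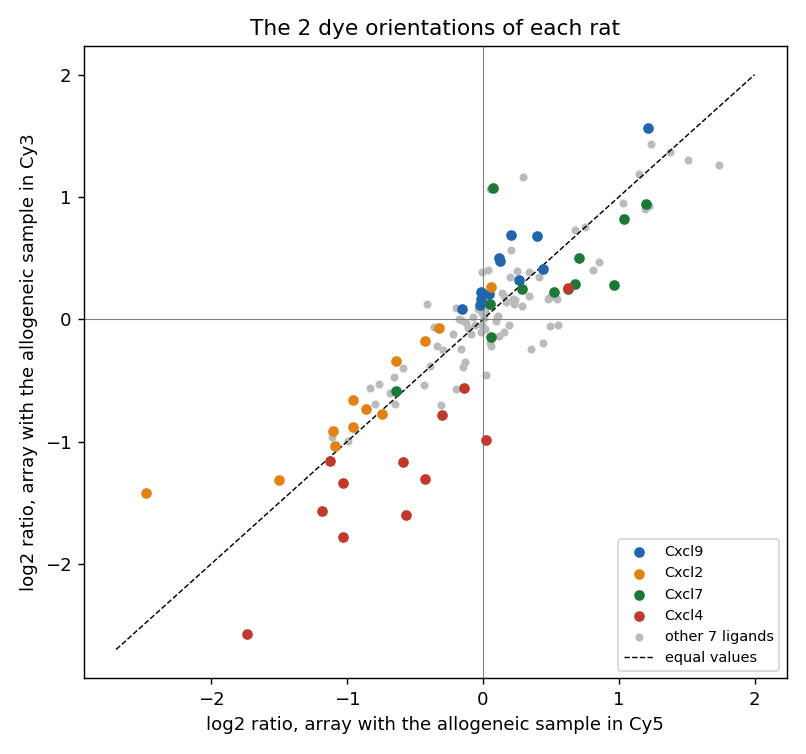
Log2 ratio of allogeneic over syngeneic on the array with the allogeneic sample in Cy5 (horizontal axis) against the array with it in Cy3 (vertical axis), one point per rat and ligand, with the 4 called ligands in color, the other 7 in grey and a dashed line of equal values. *Cxcl4* lies below the line in all 12 rats and *Cxcl2* and *Cxcl9* above it in 11, while the means of each of these genes keep their sign in both orientations.

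A search of the upstream sequences is given because 8 of the ligand genes lie on chromosome 14, among them the 4 called ligands of both directions. RefSeq promoters of GRCr8 were given for 10 of the 11 ligands, all but *Cxcl4*. The 250 bases before the start were searched on both strands for the interferon-stimulated response element (GAAA on either side of any 2 bases), for the gamma-activated site (TTCNNNGAA) and for the NF-kB consensus. The NF-kB consensus is its own near reverse complement, so that overlapping matches on opposite strands can occur at 1 site. The windows of *Cxcl9*, *Cxcl10*, *Cxcl2* and *Cxcl7* are shown, a pair known as interferon-inducible and called ligands of both directions, with matches in capitals.
Cxcl9, chr14:16006916-16007165, plus strand: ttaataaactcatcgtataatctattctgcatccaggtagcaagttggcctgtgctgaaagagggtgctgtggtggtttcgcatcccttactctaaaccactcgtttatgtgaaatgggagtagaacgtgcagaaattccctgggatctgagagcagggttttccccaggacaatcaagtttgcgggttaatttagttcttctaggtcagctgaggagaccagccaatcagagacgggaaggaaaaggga
Cxcl10, chr14:15988816-15989065, plus strand: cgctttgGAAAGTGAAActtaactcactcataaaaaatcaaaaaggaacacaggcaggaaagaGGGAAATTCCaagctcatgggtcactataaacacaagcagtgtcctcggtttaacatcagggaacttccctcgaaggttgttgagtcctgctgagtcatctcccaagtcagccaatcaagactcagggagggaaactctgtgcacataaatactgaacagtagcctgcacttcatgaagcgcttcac
Cxcl2, chr14:17467256-17467505, minus strand: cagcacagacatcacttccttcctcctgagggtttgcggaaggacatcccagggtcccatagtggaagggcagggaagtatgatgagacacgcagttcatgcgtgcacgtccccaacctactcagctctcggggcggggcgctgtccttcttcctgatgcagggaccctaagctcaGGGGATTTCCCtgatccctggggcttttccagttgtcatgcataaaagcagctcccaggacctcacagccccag
Cxcl7, chr14:17587300-17587549, minus strand: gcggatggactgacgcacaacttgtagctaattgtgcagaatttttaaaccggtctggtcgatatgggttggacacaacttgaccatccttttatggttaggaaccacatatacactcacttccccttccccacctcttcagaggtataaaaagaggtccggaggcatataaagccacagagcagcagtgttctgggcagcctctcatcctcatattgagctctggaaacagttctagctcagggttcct
The capitals mark an interferon-stimulated response element starting 243 bases and an NF-kB match starting 187 bases before the start of *Cxcl10*, and 2 overlapping NF-kB matches from 74 bases before the start of *Cxcl2*. The windows of *Cxcl9* and *Cxcl7* held no match.

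The NF-kB consensus was found in the windows of 5 of the 10 ligands (*Cxcl1*, *Cxcl2*, *Cxcl5*, *Cxcl10* and *Cxcl11*) and in 3.54% of all 33469 promoters. The response element was found in 1 ligand, *Cxcl10*, and in 3.41% of all promoters. The gamma-activated site was found in 1 ligand, *Cxcl11*, and in 7.67% of all promoters. Of the ligands with an NF-kB match, only *Cxcl2* passed the test between the groups. A match describes letters and not a bound site.

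The receptors of the ligands were measured for 7 of 9 listed genes, and 1 of them passed, a share of 14.3% against 16.3% of all genes. *Il8rb*, the *Cxcr2* gene that receives *Cxcl1*, *Cxcl2*, *Cxcl5* and *Cxcl7*, was higher in 12 of 12 rats with a log2-fold change of 0.15 ± 0.14 (SD) and an adjusted p of 0.0191. *Cxcr3*, the receptor of *Cxcl9* to *Cxcl11*, had -0.05 ± 0.07 with an adjusted p of 0.169. *Cxcr4*, the receptor of *Cxcl12*, had -0.06 ± 0.15 with an adjusted p of 0.342, and *Cmkor1*, its atypical receptor *Ackr3*, had 0.13 ± 0.26 with an adjusted p of 0.248. *Cx3cr1*, the receptor of *Cx3cl1*, had -0.00496 ± 0.06 with an adjusted p of 0.901. *Il8ra* (*Cxcr1*) and *Blr1* (*Cxcr5*) had -0.04 and -0.02 and did not pass.

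Of the list of inducers and NF-kB genes, 9 of 13 were measured, 3 were lower and 0 were higher. The share that passed was 33.3%, against 16.3% of all genes. The cytokine *Il1b* had -0.98 ± 0.53 and was lower in 12 of 12 rats (adjusted p = 0.000695). The cytokine *Tnf* had -0.16 ± 0.10 with an adjusted p of 0.00207, and *Nfkbia*, the inhibitor and target of NF-kB, had -0.32 ± 0.32 with an adjusted p of 0.0245. The median of the list was -0.11.

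Of the list of interferon-gamma signalling and targets, 18 of 22 were measured, 4 were lower and 0 were higher, with a median of -0.06. The share that passed was 22.2%, against 16.3% of all genes. *Socs1*, the feedback inhibitor of interferon signalling, had -0.35 ± 0.24 and was lower in 12 of 12 rats (adjusted p = 0.00375). *Psmb10* and *Psmb9*, subunits of the immunoproteasome, had -0.33 ± 0.29 and -0.19 ± 0.20 with adjusted p of 0.0124 and 0.0313. *Ifngr2*, a chain of the interferon-gamma receptor, had -0.18 ± 0.21 with an adjusted p of 0.0456. The signal of *Ifng* itself exceeded background clearly on 4 of 24 arrays. None of the 3 measured proteases (*Adam10*, *Adam17* and *Dpp4*) passed at an adjusted p under 0.05, and 1 did at an unadjusted p under 0.05.

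All 15 CC ligands with a Ccl name were measured, 5 were lower and 2 were higher, with a median of -0.03. The lowest were *Ccl6* at -1.54 ± 0.70 and *Ccl9* at -1.16 ± 0.33, macrophage products, each lower in 12 of 12 rats (adjusted p = 0.000235 and 1.51e-05). These signs are those of the dye labels. The study lists both genes among its most strongly up-regulated ones in allogeneic explants, with larger log2-fold changes. *Ccl22*, a product of dendritic cells and macrophages named after its values were seen, had -1.02 ± 0.95 and was lower in 11 of 12 rats (adjusted p = 0.0168). *Ccl3*, a macrophage inflammatory protein, had -0.66 ± 0.34 (adjusted p = 0.000493), and *Ccl27*, made by keratinocytes, had 0.65 ± 0.41 and was higher in 12 of 12 rats (adjusted p = 0.00197). Over the lists of receptors, inducers, interferon-gamma, proteases and CC ligands together, 15 of 52 genes passed, or 28.8%, of which 12 were lower and 3 higher, against 16.3% of all genes, 7.6% lower and 8.66% higher. The lists were chosen with earlier results of these data known, and this share is a description.

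**Figure D4:**
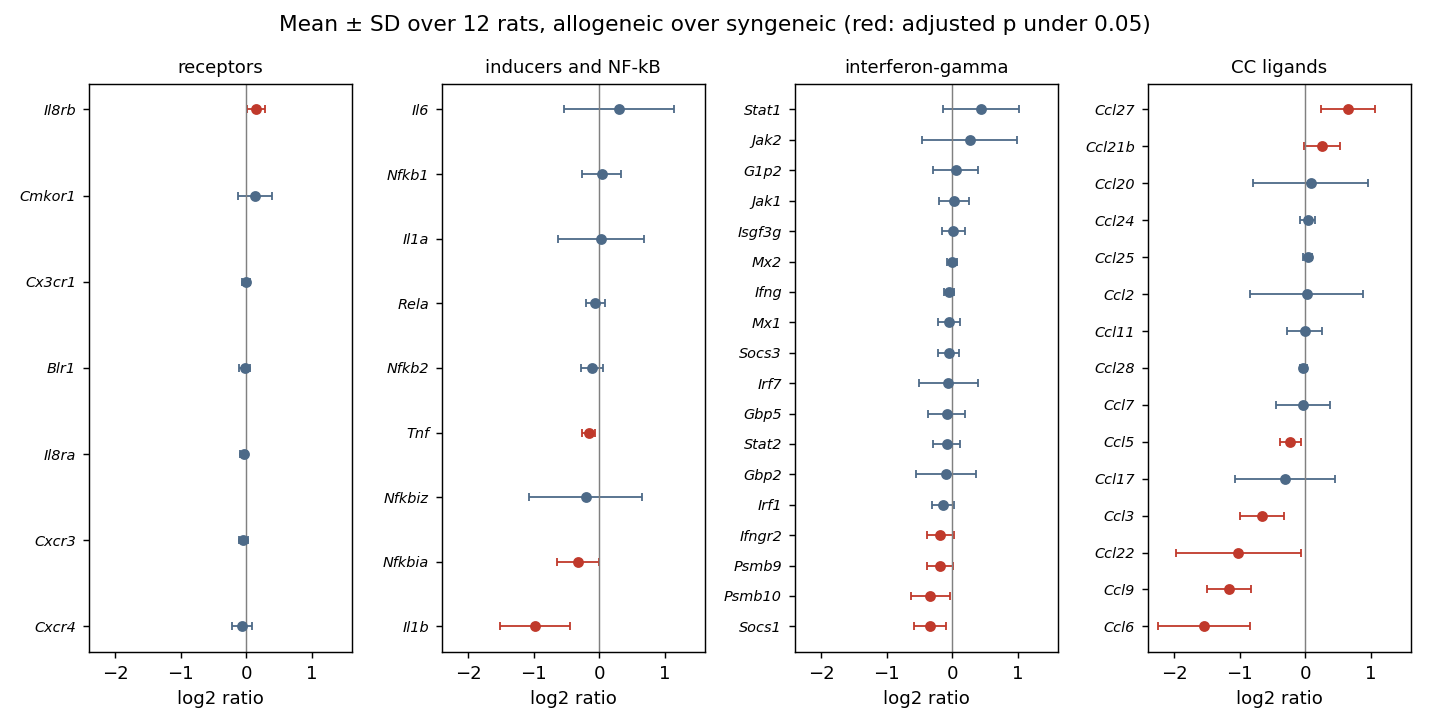
Mean log2 ratio of allogeneic over syngeneic (horizontal axis) with SD over 12 rats for each measured receptor, inducer or NF-kB gene, interferon-gamma gene and CC ligand (vertical axes), with genes past an adjusted p of 0.05 in red. Receptors lie within 0.15 of 0, *Il1b*, *Ccl22*, *Ccl9* and *Ccl6* lie near or below -1, and *Ccl27* is the highest of the CC ligands at 0.65.

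Markers of leukocytes moved between the groups as well. Over all genes, 16.3% passed the threshold, 7.6% lower and 8.66% higher. Of the T cell list 4 of 9 were lower (*Cd8a*, *Lck*, *Cd5* and *Cd2*) and 0 higher, and the summed intensity ranged from 2093 to 4559 in allogeneic and from 2482 to 6578 in syngeneic explants, lower in the allogeneic explant of 9 of 12 rats. Of the NK cell list 3 of 6 were lower (*Nkg7*, *Gzmb* and *Klrb1a*) and 0 higher, with sums of 833.5 to 1745 and 896.2 to 1907, lower in the allogeneic explant of 12 of 12 rats. The other listed NK cell genes, *Ncr1* (-0.005), *Klrd1* (-0.09) and *Prf1* (-0.08), did not pass. Of the macrophage list 3 of 8 were lower (*Aif1*, *Itgam* and *Csf1r*) and *C1qa* was higher, with sums of 12860 to 27740 and 11420 to 30220, lower in 6 of 12 rats. Of the neutrophil list 0 of 4 and of the B cell list 0 of 3 passed, and 0 and 1 did at an unadjusted p under 0.05. All of these lists kept at least 1 marker well above background on all 24 arrays, while *Fpr1* was so on 1 array.

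Among the markers of skin cells, *Col1a2* of the fibroblast list was higher at 0.55 ± 0.40 (adjusted p = 0.0043) and *Pdgfra* had 0.41 ± 0.50 (adjusted p = 0.0586), the 2 measured genes of 6. Their sum was higher in the allogeneic explant of 11 of 12 rats and ranged from 5844 to 36400 against 3808 to 23500. Of the endothelial list 1 of 5 was higher, *Cdh5* at 0.33 ± 0.12 (adjusted p = 0.000102), with sums of 2835 to 12270 and 2430 to 9722. Of the measured genes, 50% of the fibroblast list and 20% of the endothelial list passed, against 16.3% of all genes. The part of these markers in the lower *Cxcl2* and *Cxcl4* and in the higher *Cxcl7*, *Cxcl9* and *Cxcl12* was not tested.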

How the data were processed

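Gene expression in 12 pairs of skin explants was measured on 24 two-color Agilent arrays. Per the file headers, the authors deposited mean and local background intensities extracted by Feature Extraction 9.5.1.1, with processed signals beside them. The methods name an earlier version and another amplification kit than the labels. The authors also deposited a table of log2 ratios, 1 column per array. Its background treatment is not given in the sources used here. All 24 columns correlated positively (0.707 to 0.955) with the processed log ratio turned to allogeneic over syngeneic, and their medians lay between -0.03 and 0.02.

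Intensities were corrected by normexp (offset 50) and normalized by loess within arrays (R 4.3.3, limma 3.58.1), with control and outlier spots (161 to 228 per array) left out. Spots of a probe, probes of a gene, and the 2 arrays of a rat, turned to allogeneic over syngeneic, were averaged. The intercept over 12 rats was tested by limma with Benjamini-Hochberg adjustment over 7263 genes or 8453 probes. As a stand-in for the mixed-effects ANOVA of the methods, an unmoderated ANOVA was run on the rat means. Levels are log2 intensities after Aquantile scaling, compared within a probe only. The number of rats limits the precision. The numbers pair the arrays of 1 rat, which hold the same RNA. Members and lists were chosen with earlier results of these data known. All ligands were named, with every measured receptor and at most 4 called genes from each list; any other gene was picked with its values known. As a check of the code alone, the fit was run on simulated independent normal values with planted changes. These held no dye effect and no outlying rat.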

Additional observations from a re-analysis of the deposited data

How the results depend on the processing

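Over 28 alternatives, *Cxcl2* and *Cxcl4* kept their direction and an adjusted p under 0.05 in all, with log2-fold changes of -0.93 to -0.67 and of -1.21 to -0.62. *Cxcl7* passed in 16 and *Cxcl9* in 17, always with a positive sign. The number of ligand genes that passed was 2 with the unmoderated ANOVA, against 4, and 2 to 6 when each rat was left out in turn. Leaving out rat 1, 2 or 4 left *Cxcl2* and *Cxcl4* alone. By probe it was 3 with the slide as a block, 2 with the unmoderated ANOVA, 3 with the exact signed-rank test, and 2 to 6 without 1 rat, against 5. With the rat as a random replicate block over 24 arrays, 8 genes and 9 probes passed, *Cxcl1* (adjusted p = 0.0254), *Cxcl5* (0.029), *Cxcl12* (0.00635) and *Cxcl14* (0.0249) in addition. This block took arrays of the same RNA as partly separate values and left the means unchanged. It changed no other call among the ligands, and 1343 of all genes passed with it. With only the arrays that had the allogeneic sample in Cy5, 23 pathway genes passed, against 15, and 2194 of all genes, against 1181. With it in Cy3, 2086 of all genes passed. Leaving out 1 rat gave 11 to 16 pathway genes and 936 to 1746 of all genes, the latter without rat 8. Further alternatives, chosen after seeing the data, left out array 1 of rat 10, which gave 6 ligand genes, or rats 8 and 10, which gave 5 and 1777 of all genes. *Cxcl11* changed sign to 0.0032 with the allogeneic sample in Cy3 and ranged from -0.0229 to 0.00818 without 1 rat, changing sign without rats 2, 11 and 12 (0.00818, 0.00229 and 0.000259). The cause of these shifts was not tested. Of the 307 values of single ligands, 262 kept direction and side of the threshold, 23 lost and 18 gained the call. *Cxcl11* lies at background, so that no change in it was detectable.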

Other observations

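Genes outside the naming rule may bear on the family. The array also holds *LOC498335*, taken here as the B cell attractant *Cxcl13*. Its log2-fold change was 0.28 ± 0.59 (SD, n = 12), above 0 in 8 of 12 rats and with an adjusted p of 0.275 by limma. A further gene, named XM_225162 and given no symbol here, had -0.02 ± 0.06 with an adjusted p of 0.601.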
